A study of Mus musculus with 32 samples.

Results

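The growth hormone (GH) and IGF1 axis was followed through 10 genes of mouse liver, chosen by name with earlier results of these data known: Ghr, Igf1, Igfals, Socs2, Socs3, Cish, Stat5b, Bcl6, Lifr and Egfr. All 10 of them were found among the 20076 genes counted in the liver mRNA of the series. The 32 male C57BL/6J mice formed 8 groups of 4, in which MCAD-KO mice (a whole-body knockout of Acadm, the gene of medium-chain acyl-CoA dehydrogenase) or their WT littermates received a low-fat (LF) or high-fat (HF) diet for 6 weeks and were then left fed or fasted for 16 h. No mouse carried a change in a gene of the GH axis itself, and all tissue was taken in the morning. Ages from 7.5 to 16 are given in the sample labels without a unit. Sequencing covered the 3′ ends of mRNAs, at a depth of 2031053 to 4292200 gene counts per mouse (median 2899001).

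Of the 32 mice, 2 were left out before any comparison. In KO HF fasted replicate 4, the 10 hepatocyte markers summed to 689 CPM (gene counts divided by the library total and scaled to a common total, here without further normalisation) against 32763 to 61883 CPM in the 30 mice kept, and the 12 heart markers summed to 44697 CPM against at most 530.3 CPM, so this library does not carry the profile of its label. In WT LF fed replicate 2, the 6 hepatic stellate cell markers summed to 1506 CPM, against 349 to 639.7 CPM in the 30 mice kept. Its liver macrophage markers summed to 604 CPM, against 181 to 598 CPM. Its hepatocyte markers (39096.5 CPM) and heart markers (16.8 CPM) lay within the ranges of the mice kept, so it was a liver library by these markers. Among the 30 mice, 1 WT HF fasted mouse held 17032 CPM of acinar pancreas markers and 1 KO HF fasted mouse 10682 CPM of acute-phase mRNAs, and both stayed in. KO HF fed replicate 1, with 2570 CPM of acinar pancreas and 530.3 CPM of heart markers, stayed in too. It held the highest Igf1 and Socs2 of the 30 mice (1117 and 145 CPM, normalised as described below). KO LF fasted replicates 3 and 4, also kept, held 239 and 97.2 CPM of adrenal cortex markers (median of the 30 mice 0.914 CPM). The groups therefore hold 4 mice each, except WT LF fed and KO HF fasted with 3. All WT LF fed mice were sequenced on lane 8, while each of the other groups was spread over both lanes. With lane as a term, the fasting effect on Ghr in WT LF mice was -0.92 (adjusted p = 0.0039). Below, a level is given in CPM normalised by the trimmed mean of M values (TMM), as one value per mouse, and a change as a log2 fold change with its standard error (SE) from the edgeR quasi-likelihood test with Benjamini-Hochberg adjustment over the 11566 genes tested, called at an adjusted p below 0.05. Acadm, the targeted gene, stood at 191 to 754 CPM in the 16 WT mice and at 9.06 to 37.4 CPM in the 16 MCAD-KO mice, so every library matched its genotype label.

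GH from the pituitary binds its receptor (encoded by Ghr) on hepatocytes, the receptor-bound kinase JAK2 phosphorylates STAT5B, and STAT5B enters the nucleus to activate genes such as Igf1, Igfals, Socs2 and Cish. IGF1 circulates in a complex with a binding protein and the acid-labile subunit encoded by Igfals, and the proteins encoded by Cish, Socs2 and Socs3 feed back on cytokine receptor signalling. Male rodents release GH in pulses, and BCL6 is a repressor that shares binding sites with STAT5 in male liver.

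The window around the start site is shown for the 2 members with more than 1 letter match in a single window to the core of the STAT-binding motif (TTCNNNGAA, which reads the same on both strands), because these are known STAT5 target and partner genes whose levels are described further on. In the lower-case sequences, which run 5′ to 3′ and come from RefSeq on GRCm38.p6, the matches are in capitals. The Cish sequence includes the first 20 bases from the start site and the Bcl6 sequence ends at the base before its start.
Cish (chr9:107296409-107296678, plus strand): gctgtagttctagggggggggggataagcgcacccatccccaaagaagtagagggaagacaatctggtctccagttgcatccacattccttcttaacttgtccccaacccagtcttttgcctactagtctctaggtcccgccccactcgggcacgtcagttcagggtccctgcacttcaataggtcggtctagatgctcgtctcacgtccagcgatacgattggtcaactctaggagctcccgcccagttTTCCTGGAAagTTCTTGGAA
Bcl6, second start (chr16:23981284-23981533, minus strand): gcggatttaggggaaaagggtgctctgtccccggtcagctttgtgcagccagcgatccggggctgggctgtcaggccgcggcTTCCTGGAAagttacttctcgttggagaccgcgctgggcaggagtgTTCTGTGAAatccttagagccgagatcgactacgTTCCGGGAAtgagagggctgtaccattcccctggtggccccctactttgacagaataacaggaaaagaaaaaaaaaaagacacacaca
Of the 32851 promoter windows of 300 bases in the same RefSeq set (250 before and 50 after the start), 2726 (8.30%) held 1 or more such matches, 150 (0.457%) held 2 or more and 11 (0.0335%) held 3 or more. Cish had matches at 0 and 11 bases after its start (TTCCTGGAA and TTCTTGGAA), and the Bcl6 window had them 168, 122 and 88 bases before its start. Single matches lay 118 bases before the other Bcl6 start, 154 bases before the start of Socs3 and 236 and 58 bases before 2 starts of Igfals. No match lay in the windows of Ghr, Igf1, Stat5b, Lifr and Egfr, and Socs2 had no entry in the table used. In all, 15 windows of 9 members were searched and 6 held a match.

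Fasting lowered the mRNA of the GH receptor, of its transducer Stat5b, of the leukaemia inhibitory factor receptor Lifr and of the feedback inhibitor Cish, whereas the level of Igf1 itself stayed within the spread between mice. Averaged over both genotypes and diets, these 4 of the 10 members were called, all of them lower in fasted liver, where 9.14% of the 11566 genes tested were called lower and 9.77% higher. The median log2 fold change of the members was -0.51, against -0.0022 over all genes tested. Because the members were chosen with earlier results of these data known, both comparisons with all genes are descriptions and no test of the list. In bulk liver, fewer cells of a type and less mRNA per cell cannot be told apart. The 10 hepatocyte markers summed to a median of 43976 CPM in WT LF fed and 44065 CPM in WT LF fasted mice, and of 45768 CPM in KO LF fed and 44502 CPM in KO LF fasted mice. For HF mice the medians were 40340 CPM fed and 43400.0 CPM fasted in WT mice, and 42774 CPM fed and 39775 CPM fasted in KO mice.

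**Figure D1:**
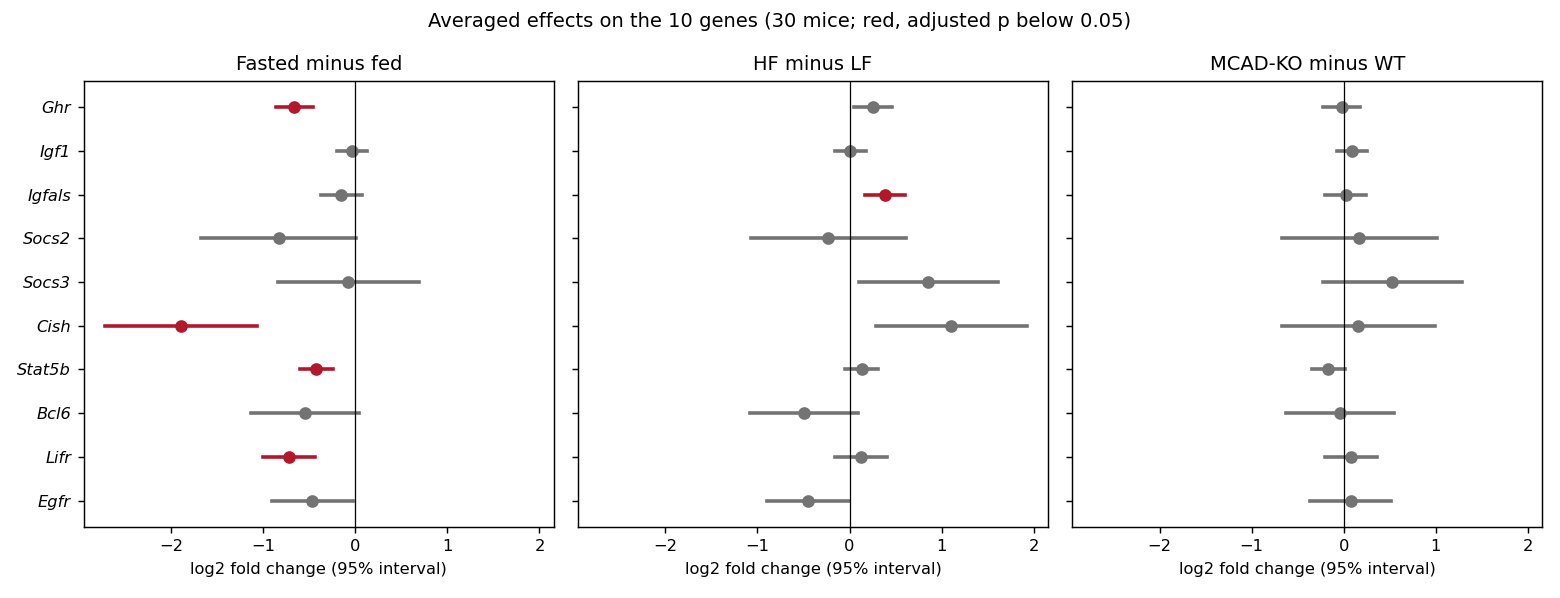
Log2 fold change of each of the 10 genes (points) with its 95% interval (bars) for fasted minus fed, HF minus LF and MCAD-KO minus WT, each averaged over the other factors in the model of 30 mice. Red marks an adjusted p below 0.05, which Ghr, Cish, Stat5b and Lifr reached for fasting, Igfals for diet and no member for genotype.

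Ghr, on the minus strand of chromosome 15 (3317760 to 3583492, GRCm38), encodes the receptor through which hepatocytes sense GH. On the LF diet, the fed WT mice held 391, 387 and 387 CPM and the fasted ones 151, 156, 217 and 275 CPM. The fed KO mice on this diet held 321, 404, 387 and 432 CPM and the fasted ones 101, 208, 259.5 and 154 CPM. Among the mice kept, fed and fasted mice did not overlap in either genotype. On the HF diet, Ghr stood at 346, 309, 334 and 373 CPM in fed WT mice and at 319.9, 343, 259 and 283 CPM in fasted ones. Fed KO mice on the HF diet held 372, 357, 362 and 428 CPM and fasted ones 340.4, 247 and 262 CPM. The WT ranges overlapped on this diet, and the KO ranges lay next to each other without overlap. Averaged over the 4 pairs of groups, Ghr was 1.58-fold lower in fasted liver (log2 fold change -0.66, SE 0.10, 95% interval -0.87 to -0.46, edgeR adjusted p = 3.9e-06). The 2 sequencing lanes gave log2 fold changes of -0.48 (lane 7) and -0.75 (lane 8), of which the second alone was called. Here and below, each single-lane fit held feeding, diet and genotype as terms without interactions. Lane 7 held no WT LF fed mouse, so single-lane values are not averages over the 4 pairs of groups.

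The fall of Ghr was larger on the LF diet. It came to 1.94-fold in WT (log2 fold change -0.95, SE 0.21, edgeR adjusted p = 0.0018) and 2.14-fold in KO mice on the LF diet (-1.10, SE 0.20, adjusted p = 0.00011). On the HF diet the values were -0.18 (SE 0.19, adjusted p = 0.87) in WT and -0.42 (SE 0.21, adjusted p = 0.67) in KO mice, and neither passed the test. The difference between the diets was itself tested as an interaction and amounted to 0.73 on the log2 scale (SE 0.20, 95% interval 0.32 to 1.13, edgeR adjusted p = 0.039). Ghr was the only member called for this interaction, where 1.26% of all genes were called in its direction. This call rested on a narrow margin, since 18 of the 30 fits that left out 1 mouse lost it (adjusted p up to 0.107) and the model with lane as a term gave 0.70 (adjusted p = 0.066). Adding back WT LF fed replicate 2, in which Ghr stood at 157 CPM, also ended it (0.61, adjusted p = 0.22).

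Ordered by their means, the 4 fed groups lay above the 4 fasted ones for Ghr. The highest was WT LF fed with 388 ± 2.18 CPM (SD, n = 3), followed by KO LF fed (386 ± 47.2, n = 4), KO HF fed (379 ± 32.7, n = 4) and WT HF fed (341 ± 26.8, n = 4). Below them came WT HF fasted (301 ± 37.3, n = 4), KO HF fasted (283 ± 49.9, n = 3), WT LF fasted (200.002 ± 58.6, n = 4) and KO LF fasted (181 ± 68.3, n = 4). Of the 7 gaps between neighbours, 3 exceeded the SD of both groups: KO HF fed to WT HF fed, WT HF fed to WT HF fasted, and KO HF fasted to WT LF fasted.

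**Figure D2:**
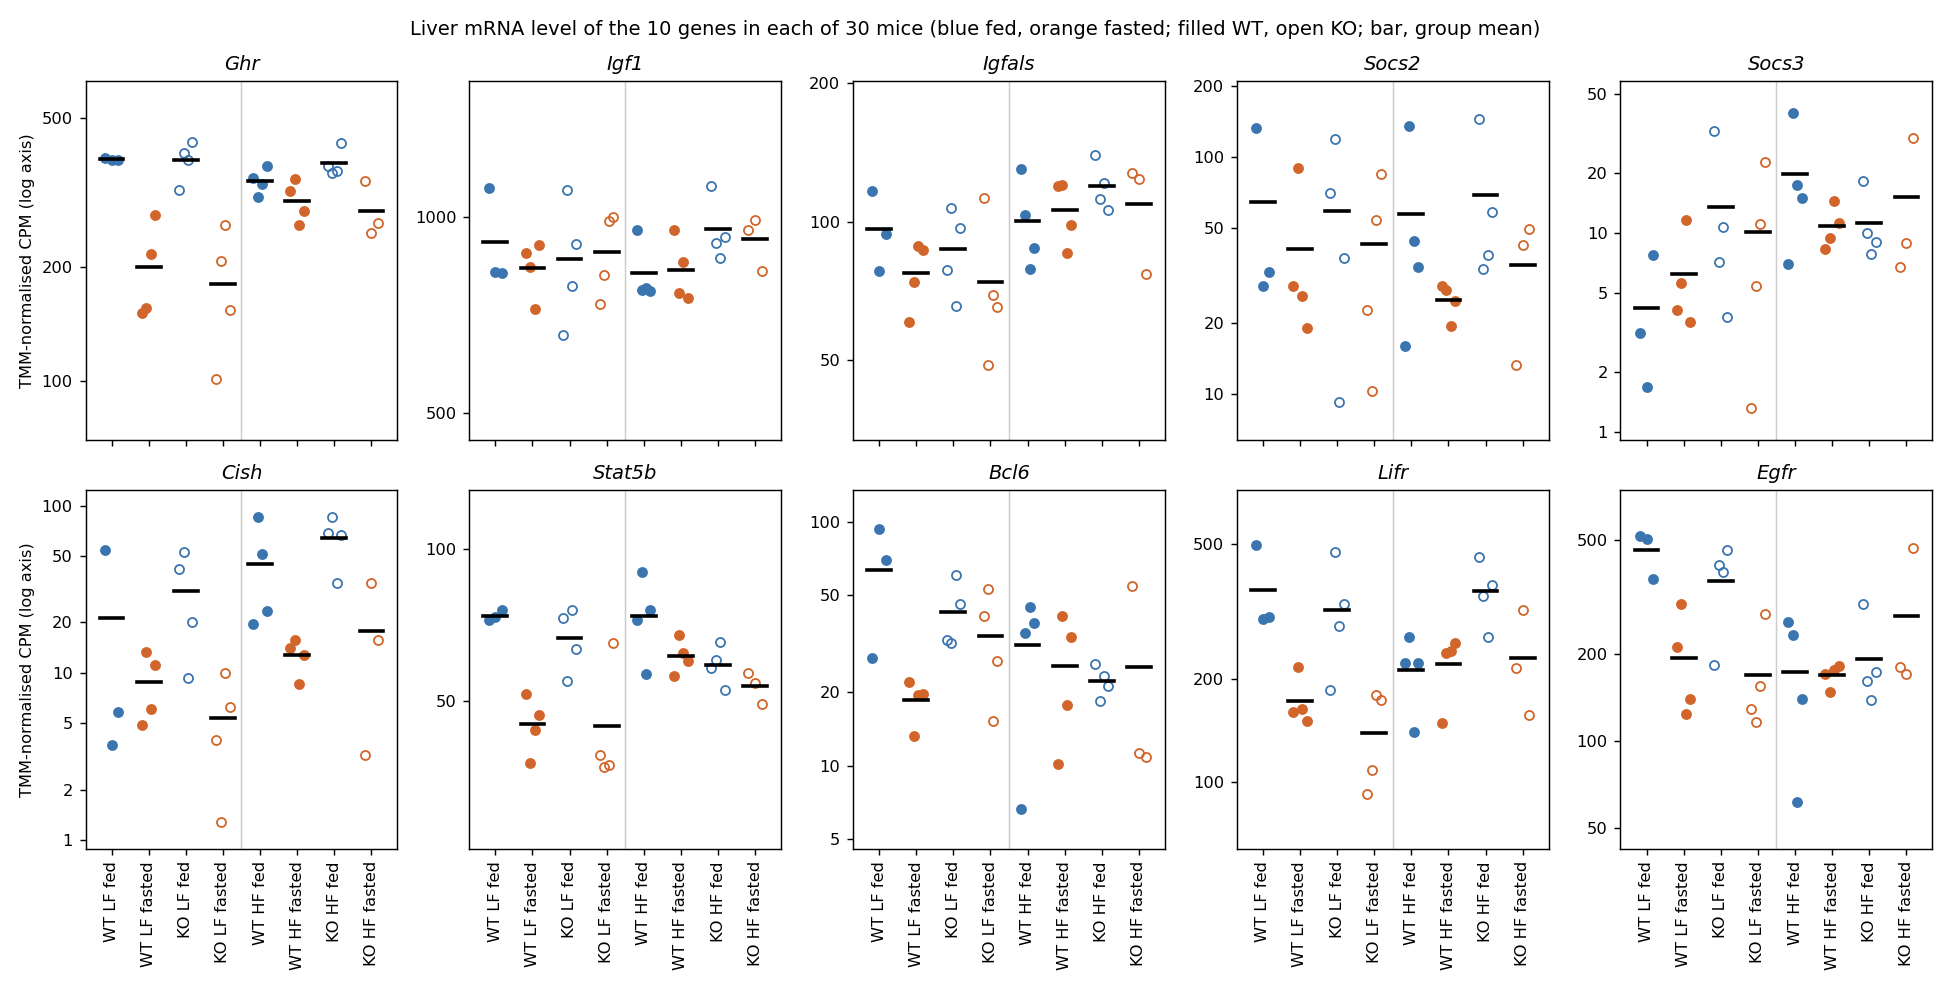
TMM-normalised CPM on a log axis for each of the 10 genes in each of the 30 mice, by group, with a bar at the group mean (blue fed, orange fasted, filled WT, open KO). Fed and fasted Ghr levels are apart on the LF diet (left of the line) and closer on the HF diet, Igf1 runs from 659 to 1117 CPM with no group apart, and Cish and Socs2 vary several-fold between mice of one group.

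Stat5b (chromosome 11, 100780731 to 100850724) encodes the transcription factor that carries the GH signal to the nucleus. On the LF diet, fed WT mice held 72.3, 73.4 and 75.8 CPM and fasted WT mice 51.8, 37.7, 44.0 and 47.1 CPM. Fed KO mice held 73.0, 54.8, 75.9 and 63.5 CPM and fasted KO mice 39.3, 37.1, 37.5 and 65.3 CPM. Among the mice kept, the WT groups were apart, and 1 fasted KO mouse lay within the fed range. On the HF diet the 8 fed mice ranged from 52.6 to 90.4 CPM and the 7 fasted mice from 49.5 to 67.7 CPM. The averaged fall was 1.34-fold (log2 fold change -0.42, SE 0.09, edgeR adjusted p = 0.00044), with -0.71 in WT LF (adjusted p = 0.0097) and -0.58 in KO LF (adjusted p = 0.019). The WT LF call was lost with WT LF fed replicate 2 added back (-0.55, adjusted p = 0.061). The KO LF call was lost with the 2 groups alone (-0.59, adjusted p = 0.16) and without any 1 of KO LF fed replicates 1 and 3 and KO LF fasted replicates 2 and 3 (-0.53 to -0.49, adjusted p = 0.059 to 0.072). Within the lanes the values were -0.40 and -0.35, and neither was called.

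Cish, on chromosome 9 (107296026 to 107302784), encodes the cytokine-inducible SH2 protein, which is made in response to STAT5 and damps the receptor. It showed the largest averaged fall among the members, 3.72-fold (log2 fold change -1.89, SE 0.40, 95% interval -2.72 to -1.07, edgeR adjusted p = 0.0012), and also wide scatter. In the WT LF groups, 1 fed mouse held 54.1 CPM and the others 3.69 and 5.81 CPM, whereas the fasted mice held 4.84, 13.2, 6.04 and 11.1 CPM. The fed median of 5.81 CPM thus lay below the fasted median of 8.59 CPM in this pair of groups. In the KO LF groups, fed mice held 41.6, 52.7, 9.27 and 20.03 CPM and fasted mice 3.97, 1.29, 10.0 and 6.26 CPM. Fed and fasted ranges thus overlapped in both genotypes on the LF diet.

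On the HF diet, Cish stood at 19.4, 84.9, 51.5 and 23.5 CPM in fed WT mice and at 14.0, 15.8, 8.61 and 12.7 CPM in fasted ones. In KO mice on this diet it stood at 68.5, 85.5, 34.5 and 66.7 CPM when fed and at 3.22, 34.4 and 15.7 CPM when fasted. Here the fasted mice lay below the fed mice in both genotypes, by a narrow margin in KO mice. Of the 4 single comparisons, the one in KO LF mice was called (log2 fold change -2.62, SE 0.85, adjusted p = 0.041), and leaving out single mice moved that adjusted p to between 0.0135 and 0.116. The difference of the fasting effect between the diets was 0.12 on the log2 scale (SE 0.77, 95% interval -1.47 to 1.71, adjusted p = 0.98), an interval that holds more than 1 log2 unit in either direction. Lane 7 gave -2.22, which was called, and lane 8 gave -1.47, which was not. As few as 5 reads were counted on Cish in a mouse, and 2 genes on the opposite strand (Gm17040 and Gm17041) overlap it, which matters because the strand setting of the counting is not stated.

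Lifr (chromosome 15, 7090614 to 7197489) encodes the receptor that pairs with gp130 to bind leukaemia inhibitory factor. On the LF diet, fed WT mice held 495, 300.1 and 304 CPM and fasted WT mice 161, 218, 164 and 152 CPM. Fed KO mice held 187, 471, 288 and 332 CPM and fasted KO mice 92.7, 108, 180.4 and 174 CPM. Among the mice kept, neither genotype overlapped between feeding states on this diet. On the HF diet, the WT mice held 224, 266, 141 and 224 CPM fed and 149, 239, 243 and 256 CPM fasted, and these overlapped. The KO mice on the HF diet held 458, 352, 267 and 379 CPM fed and 216, 319 and 157 CPM fasted. Averaged, Lifr fell 1.65-fold (log2 fold change -0.72, SE 0.14, edgeR adjusted p = 0.00029), with -1.08 in WT LF (adjusted p = 0.016), -1.20 in KO LF (adjusted p = 0.0026), 0.06 in WT HF (adjusted p = 0.97) and -0.66 in KO HF mice (adjusted p = 0.58). The WT LF call was lost with WT LF fed replicate 2 added back (-0.78, edgeR adjusted p = 0.18). The diet interaction was 0.84 (SE 0.28, adjusted p = 0.12) and did not pass. Lane 7 gave -0.57, which was not called, and lane 8 gave -0.81, which was.

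Egfr, the receptor of epidermal growth factor (chromosome 11, 16752203 to 16918158, overlapped on the other strand by Egfros), had a similar shape without passing the test. In WT LF mice it stood at 512, 501 and 364 CPM fed and at 212, 298, 124 and 140.2 CPM fasted, with no overlap among the mice kept. In KO LF mice it stood at 184, 409, 386 and 458 CPM fed and at 129, 116, 155 and 277 CPM fasted. The HF mice ranged from 61.4 to 298 CPM fed and from 148 to 466 CPM fasted. The log2 fold changes were -1.25 (SE 0.44, edgeR adjusted p = 0.093) in WT LF, -1.08 (SE 0.41, adjusted p = 0.088) in KO LF, -0.03 in WT HF and 0.50 in KO HF mice. Averaged over the 4 strata the value was -0.47 (SE 0.21, edgeR adjusted p = 0.15). The mouse with 466 CPM was the KO HF fasted mouse with the acute-phase mRNAs, and without it the averaged fall was called (-0.62, adjusted p = 0.038). The interaction with diet was 1.40 (SE 0.43, edgeR adjusted p = 0.093), and it was called by DESeq2 (1.39, adjusted p = 0.032) and by limma voom (1.496, adjusted p = 0.024).

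**Figure D3:**
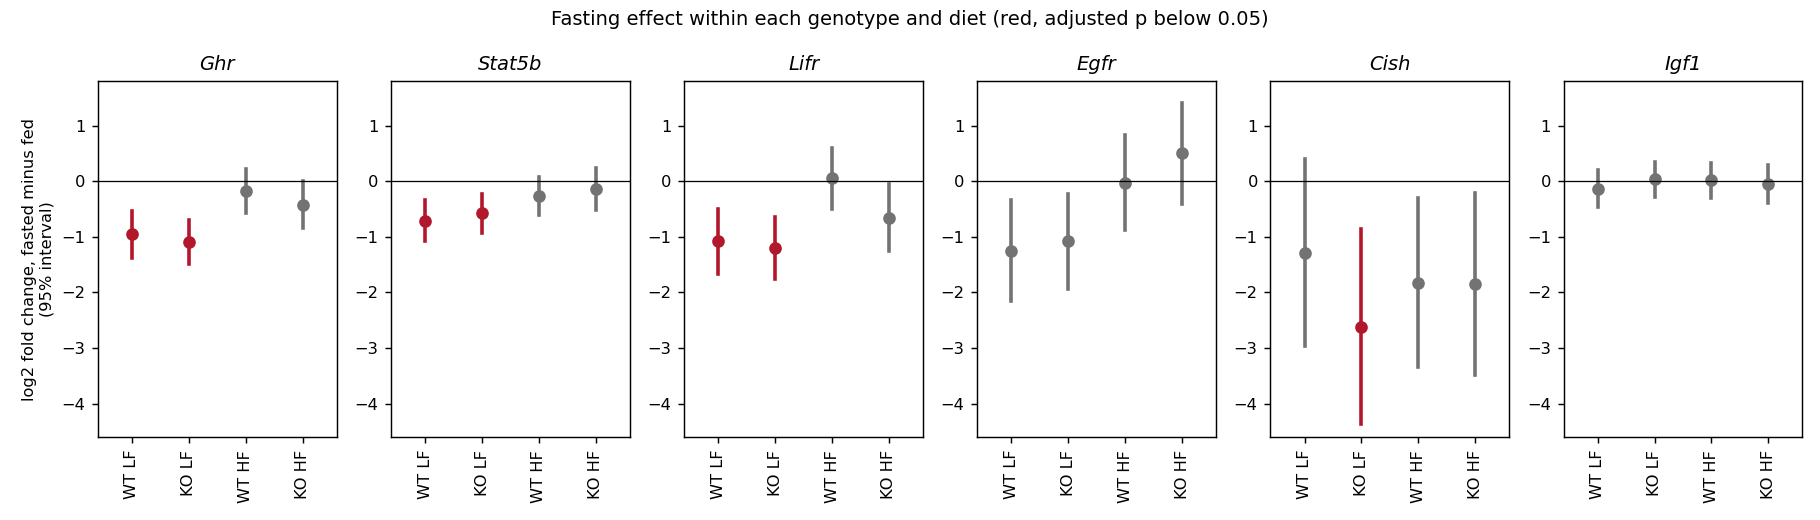
Log2 fold change of fasted minus fed mice (points, with 95% interval) within each genotype and diet for Ghr, Stat5b, Lifr, Egfr, Cish and Igf1, where red marks an adjusted p below 0.05. Ghr, Stat5b and Lifr are red in WT LF and KO LF mice, Cish is red in KO LF mice, and Igf1 stays close to 0 throughout.

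By range alone, every fasted mouse lay below every fed mouse for 5 of the 10 members in WT LF mice (Ghr, Stat5b, Bcl6, Lifr and Egfr), where 10.2% of all genes tested did so. The corresponding members were Ghr and Lifr in KO LF mice (6.97% of genes), Cish in WT HF mice (2.7% of genes), and Ghr and Cish in KO HF mice (5.2% of genes). The left-out mouse WT LF fed replicate 2 held 157 CPM of Ghr, 42.9 of Stat5b, 13.9 of Bcl6, 95.6 of Lifr and 111 CPM of Egfr. Each value lay within or below the range of the fasted WT LF mice. With this mouse in the fed group, none of the 5 members named for WT LF mice would be apart. By the test, 3 members were called lower in WT LF mice (3.79% of genes called lower), 4 in KO LF mice (6.53%), 0 in WT HF mice (0.156%) and 0 in KO HF mice (0.233%). At an unadjusted p below 0.05, 1 member in WT HF (Cish) and 2 in KO HF mice (Cish and Lifr) were lower, where 1063 and 871 of the 11566 genes had such a p in either direction, and DESeq2 and limma voom called 0 members in both. Acute-phase mRNAs, a list of 10 genes that all were detected, moved with feeding on the LF diet as well, with summed levels of 5209 to 5396 CPM in WT LF fed, 3604 to 5023 in WT LF fasted, 4879 to 5861 in KO LF fed and 3747 to 4319 CPM in KO LF fasted mice. The 6 liver macrophage markers summed to medians of 357 CPM in WT LF fed, 228 CPM in WT LF fasted, 397 CPM in KO LF fed and 219 CPM in KO LF fasted mice, with overlap in both genotypes. The part of either list in the changes above was not tested.

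The hormone gene Igf1 (chromosome 10, 87858265 to 87937042, with Igf1os on the other strand) is the main endocrine product of GH action in liver. Its level in the 30 mice ran from 659 to 1117 CPM with a median of 859 CPM. In WT LF mice it stood at 1107, 823 and 820.1 CPM fed and at 879, 839, 722 and 904 CPM fasted. In KO LF mice it stood at 659, 1100.2, 784 and 909 CPM fed and at 736, 814, 985 and 1001 CPM fasted. All groups overlapped, including those on the HF diet, where fed mice ranged from 769 to 1117 CPM and fasted mice from 749.8 to 989 CPM. The averaged fasting effect was -0.03 on the log2 scale (SE 0.08, 95% interval -0.20 to 0.13, edgeR adjusted p = 0.84), an interval that leaves out a fall as large as that of Ghr. None of the 7 gaps between neighbouring group means, which ran from KO HF fed (957 ± 109.9 CPM, SD, n = 4) down to WT HF fed (819 ± 91.7 CPM, SD, n = 4), exceeded the SD of both groups.

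Igfals (chromosome 17, 24865997 to 24882010) encodes the acid-labile subunit that holds IGF1 in the circulation. It was the only member called for diet, where 2.26% of the 11566 genes were called higher and 1.24% lower on the HF diet. The 15 LF mice ranged from 48.7 to 117 CPM (median 78.5) and the 15 HF mice from 76.9 to 139 CPM (median 112), with overlap. The HF level was 1.30-fold higher (log2 fold change 0.38, SE 0.11, 95% interval 0.16 to 0.60, edgeR adjusted p = 0.039). The call was lost in 17 of the 30 fits that left out 1 mouse (adjusted p up to 0.094), and with lane as a term (0.34, adjusted p = 0.072) or age as a term (0.38, adjusted p = 0.051). Lane 7 gave 0.63 and lane 8 gave 0.20, and neither was called. In the single comparisons of the diets no member was called, where the genes called came to 0.0778% in WT fed, 1.12% in WT fasted, 0.00865% in KO fed and 1.68% in KO fasted mice. Cish was higher on the HF diet by 1.10 on the log2 scale without passing (SE 0.40, adjusted p = 0.14), and it passed when WT LF fed replicate 1, the mouse with 54.1 CPM, was left out (1.65, adjusted p = 0.013).

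Igfals showed an averaged fasting effect of -0.15 (SE 0.11, edgeR adjusted p = 0.39). Of the remaining members, Socs2 (chromosome 10, 95385362 to 95417180), which encodes an inhibitor of GH receptor signalling, had -0.83 (SE 0.41, 95% interval -1.68 to 0.01, adjusted p = 0.18). Socs3 (chromosome 11, 117966079 to 117970047), an inhibitor of gp130 signalling, had -0.08 (SE 0.37, 95% interval -0.84 to 0.69, adjusted p = 0.92). Its levels ran from 1.32 to 39.9 CPM in the 30 mice, and lanes 7 and 8 gave opposite signs (-1.45 and 1.03), neither of them called. Bcl6 (chromosome 16, 23965052 to 23988852, overlapped by Gm37419 on the other strand) had -0.55 (SE 0.28, 95% interval -1.14 to 0.04, adjusted p = 0.20), and it was called without KO HF fasted replicate 1, the mouse with 54.4 CPM (-0.85, adjusted p = 0.023). The intervals of Socs2 and Bcl6 reach from a fall of more than 1 on the log2 scale to no change, so neither a fall of that size nor no change is excluded.

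The genotype comparison, on which the study was built, gave no called member, averaged or in any of the 4 diet and feeding states. Among the 11566 genes, 1 was called (0.00865%), which was Acadm itself, lower in MCAD-KO liver, while 335 genes had an unadjusted p below 0.05 and 1 gene was called by DESeq2 and by limma voom. The members ran from -0.17 for Stat5b (SE 0.09, 95% interval -0.35 to 0.01) to 0.53 for Socs3 (SE 0.37, 95% interval -0.23 to 1.28). Ghr stood at -0.02 (95% interval -0.23 to 0.18) and Igf1 at 0.09 (95% interval -0.07 to 0.26). Lifr in HF fed mice had the lowest unadjusted p of the members across the 4 states, with 267 to 458 CPM in KO against 141 to 266 CPM in WT mice (log2 fold change 0.77, SE 0.27, edgeR adjusted p = 0.9999). For the difference of the fasting effect between genotypes, 0 genes were called (0.0%) and 573 had an unadjusted p below 0.05. For that of the diet effect, 0 genes were called (0.0%) and 397 had an unadjusted p below 0.05. DESeq2 and limma voom called 0 members for either.

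Mice of one group differed more in Cish, Socs2, Socs3 and Bcl6 than is common for genes of their level. The biological coefficient of variation fitted by edgeR was 0.72 for Socs2, above that of 99.8% of the 1000 genes nearest to it in level (median 0.19). It was 0.70 for Cish (above 99.8% of its neighbours), 0.64 for Socs3 (99.1%), 0.52 for Bcl6 (99.2%) and 0.39 for Egfr (96.4%). For Igf1 and Stat5b it was 0.18 and 0.17, above 35.4% and 21.8% of their neighbours, and for Ghr 0.20, above 63.4%. Fed KO mice on the LF diet, for example, held 70.8, 119.7, 9.27 and 37.6 CPM of Socs2, and fed WT mice on the HF diet 15.9, 135, 44.4 and 34.5 CPM. Bcl6 in WT LF fed mice stood at 27.6, 93.5 and 69.7 CPM, and the mouse with the lowest Bcl6 was the one with the highest Cish (54.1 CPM) and Socs2 (133 CPM) of that group. In KO HF fasted mice Bcl6 stood at 54.4, 11.2 and 10.8 CPM where Cish stood at 3.22, 34.4 and 15.7 CPM. WT HF fed replicate 1 went the other way, with the lowest Bcl6 (6.61 CPM), Cish (19.4 CPM) and Socs2 (15.9 CPM) of its group. Over the 30 mice, Cish and Bcl6 lay on the same side of their group means in 8.

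**Figure D4:**
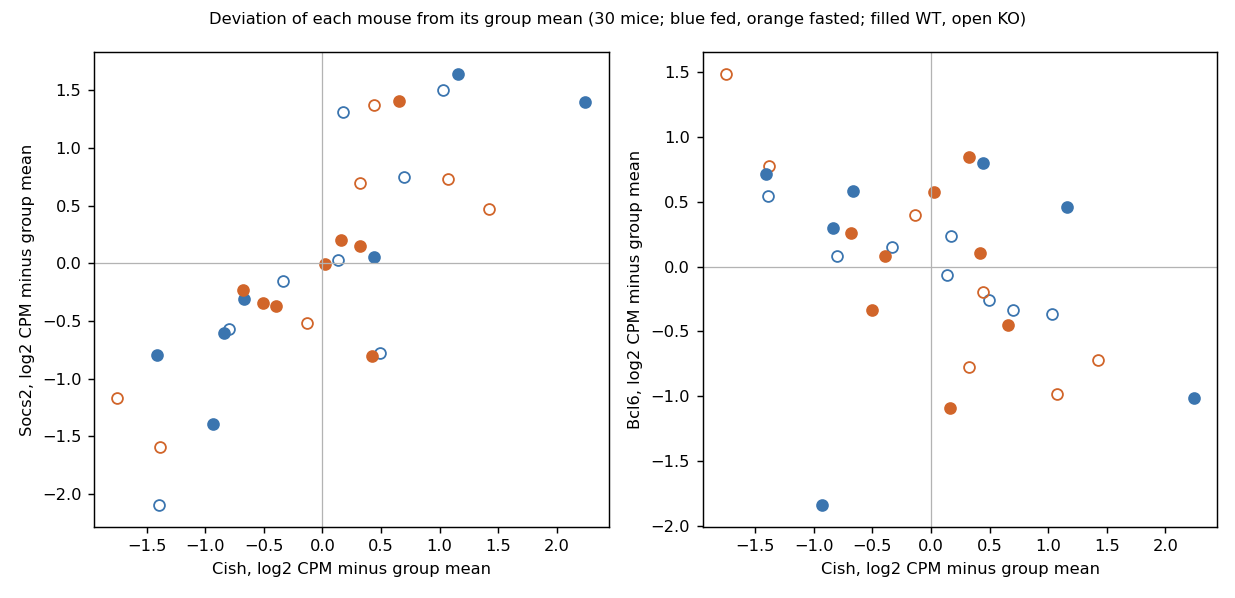
Deviation of each of the 30 mice from its group mean on the log2 CPM scale, for Cish (x) against Socs2 (left) and Bcl6 (right), in blue for fed, orange for fasted, filled for WT and open for KO mice. Cish and Socs2 deviate together (r = 0.80), and the points for Bcl6 slope the other way (r = -0.48) without passing the adjusted test.

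These deviations from the group means, which hold no part of the feeding, diet or genotype effects, were correlated for the 45 pairs of members over 30 mice, and a two-sided permutation test moved mice within their groups (100000 resamples). After adjustment over the 45 pairs, 1 pair passed. Cish and Socs2 deviated together with Pearson's r = 0.80 (permutation p = 3e-05, adjusted 0.0014) and Spearman's rho = 0.81 (permutation p = 4e-05, adjusted 0.0018), and 27 of the 30 mice lay on the same side of their group mean for both genes. Without the 2 mice farthest from the median of Socs2, r was 0.77. It was 0.80 within lane 7 (16 mice), 0.80 within lane 8 (14 mice), 0.83 in fed and 0.76 in fasted mice (15 each). Cish and Bcl6 had r = -0.48 (permutation p = 0.044, adjusted 0.29) and Spearman's rho = -0.49 (permutation p = 0.027, adjusted 0.24). Igf1 and Lifr had r = 0.63 (permutation p = 0.0037, adjusted 0.084) and Spearman's rho = 0.60 (permutation p = 0.0056, adjusted 0.13), and neither pair passed after adjustment.

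Over the 8 group means of log2 CPM, the 4 genes most like Igf1 by Pearson's r were Zfp142 (0.97), Gpatch8 (0.94), Mettl16 (0.93) and Naif1 (0.93), among 11565 genes, but the Igf1 means spanned 0.22 on the log2 scale, about the size of the spread between mice. The 4 genes most like Bcl6, whose means spanned 1.59, were Snord13 (0.98), Smim1 (0.97), Ppard (0.96) and Nup93 (0.94). These likenesses rest on 8 points and are given as descriptions.

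Igfbp1 and Igfbp2, which encode carriers of IGF1 in plasma, were called for both fasting and diet. Of a list of 16 further genes of the IGF system, 9 passed the filter on low counts, and 4 rose and 0 fell with fasting (9.77% and 9.14% of all genes tested). Igfbp1, an insulin-repressed binding protein, ranged from 38.8 to 366 CPM in 15 fed mice (median 94.6) and from 38.0 to 2035 CPM in 15 fasted mice (median 288), 3.35-fold higher (log2 fold change 1.74, SE 0.33, edgeR adjusted p = 0.0004). Igfbp2 rose 1.97-fold (0.98, SE 0.16, adjusted p = 4.9e-05), Igfbp4 rose 1.35-fold (0.43, SE 0.09, adjusted p = 0.00018), and the insulin receptor gene Insr rose 1.22-fold (0.29, SE 0.09, adjusted p = 0.015). On the HF diet, Igfbp1 was 3.90-fold lower (-1.96, SE 0.33, adjusted p = 0.0012), with medians of 798 CPM in LF fasted, 174 in LF fed, 149 in HF fasted and 58.6 CPM in HF fed mice. Igfbp2 was 1.52-fold lower on the HF diet (-0.61, SE 0.16, adjusted p = 0.032). Neither passed the test for a difference of its fasting effect between the diets. That difference was -0.79 for Igfbp1 (SE 0.65, edgeR adjusted p = 0.68) and -0.05 for Igfbp2 (SE 0.32, adjusted p = 0.98). The SE of Igfbp1 leaves a sizeable difference unresolved. The median log2 fold change with fasting over the 9 genes was 0.04, so the 4 that rose do not stand for the list.

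Among 21 further genes of GH receptor signalling, 20 passed the filter, and 2 rose and 2 fell with fasting. Over all genes tested, 9.77% were called higher and 9.14% lower, which is close to the share in this list. Irs2, an adaptor below the insulin receptor, rose 1.84-fold (log2 fold change 0.88, SE 0.24, edgeR adjusted p = 0.007), and the phosphatase gene Ptpn11 rose 1.22-fold (0.28, SE 0.09, adjusted p = 0.029). Grb10, an adaptor that restrains insulin and IGF1 receptors, fell 1.69-fold (-0.76, SE 0.26, adjusted p = 0.033), and Socs4 fell 1.29-fold (-0.37, SE 0.12, adjusted p = 0.032). With the HF diet 2 rose, where 2.26% of all genes tested were called higher. Of these 2, the prolactin receptor gene Prlr rose 1.70-fold (0.77, SE 0.14, adjusted p = 0.0011), with medians of 59.8 CPM in LF and 100.1 CPM in HF mice. The medians over the list were -0.04 for fasting and 0.04 for diet.

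Of the receptors next to Lifr, 9 genes of gp130 cytokines were listed and 5 passed the filter. With fasting 1 of these rose and 1 fell (median log2 fold change 0.01), where 9.77% of all genes tested were called higher and 9.14% lower. Il6ra, which encodes the IL-6-binding receptor chain, moved against Lifr and rose 2.28-fold with fasting (log2 fold change 1.19, SE 0.14, edgeR adjusted p = 4.4e-08), with 5.81 to 17.6 CPM in fed and 11.2 to 37.1 CPM in fasted mice. Il11ra1, the IL-11 receptor, fell 1.49-fold with fasting (-0.58, SE 0.12, adjusted p = 0.00026) and was 1.39-fold lower on the HF diet (-0.47, SE 0.12, adjusted p = 0.015). Of 12 genes of the EGF receptor family and its ligands, 7 passed the filter, and 1 of these rose and 1 fell with fasting (median log2 fold change -0.25). Errfi1, an inhibitor of the EGF receptor, rose 1.49-fold with fasting (0.57, SE 0.17, adjusted p = 0.019), and the adaptor gene Grb7 fell 1.69-fold (-0.75, SE 0.11, adjusted p = 2.3e-06).

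Genes known to follow the male GH pattern did not move one way. Of 12 male-biased genes 11 were in the table and tested, and with fasting 2 rose and 5 fell, with a median log2 fold change of -0.20. Over all genes tested, 9.77% were called higher and 9.14% lower. Hsd3b5, a male-specific steroid dehydrogenase, fell 7.68-fold (log2 fold change -2.94, SE 0.22, edgeR adjusted p = 6.2e-10). LF mice held 203 to 309.8 CPM fed and 3.91 to 9.36 CPM fasted, far apart. HF mice held 53.9 to 265 CPM fed and 39.8 to 195.5 CPM fasted, with overlap. The fasting effect differed between the diets by 4.74 on the log2 scale (SE 0.43, edgeR adjusted p = 4.3e-07). The organic anion transporter Slco1a1 fell 1.53-fold (-0.61, SE 0.10, adjusted p = 2e-05) and also less on the HF diet (difference 1.03, SE 0.20, adjusted p = 0.0031). Selenbp2 and the fatty acid elongase Elovl3 fell 2.71-fold and 1.60-fold (adjusted p = 0.014 and 0.029), and the complement gene C6, named after its value was seen, fell 1.29-fold (adjusted p = 0.042), whereas Cyp4a12b and Cyp2d9 rose 1.75-fold and 1.36-fold (adjusted p = 0.0014 and 0.0001). Hsd3b5 was 3.24-fold higher on the HF diet (1.70, SE 0.22, adjusted p = 4.9e-05) in the average over feeding states, and Cyp4a12b 1.60-fold lower (-0.68, SE 0.18, adjusted p = 0.029). By feeding state the order of the Hsd3b5 medians was opposite, with 162 CPM on HF against 267 CPM on LF in fed mice and 90.2 CPM on HF against 6.59 CPM on LF in fasted mice. Hsd3b5, Selenbp2, Cyp4a12b and Cyp2d9 have near-identical relatives in the genome, so reads could have been split among copies.

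Of 14 female-biased genes, 11 were in the table and 2 passed the filter. Cyp17a1, a steroid hydroxylase, rose 3.77-fold with fasting (log2 fold change 1.92, SE 0.31, edgeR adjusted p = 5.3e-05) in the average over diets, and its effect differed between the diets (difference -3.55, SE 0.62, adjusted p = 0.0025). LF mice held 2.64 to 15.3 CPM fed and 48.5 to 218 CPM fasted, without overlap, whereas HF mice held 6.59 to 36.3 CPM fed (median 18.3) and 12.7 to 47.2 CPM fasted (median 16.1), with overlap. Cyp2b9 was called higher on the HF diet (adjusted p = 0.029), with 0 to 0.335 CPM in LF mice, which is less than 3 reads per mouse, and 0 to 42.3 CPM in HF mice.

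**Figure D5:**
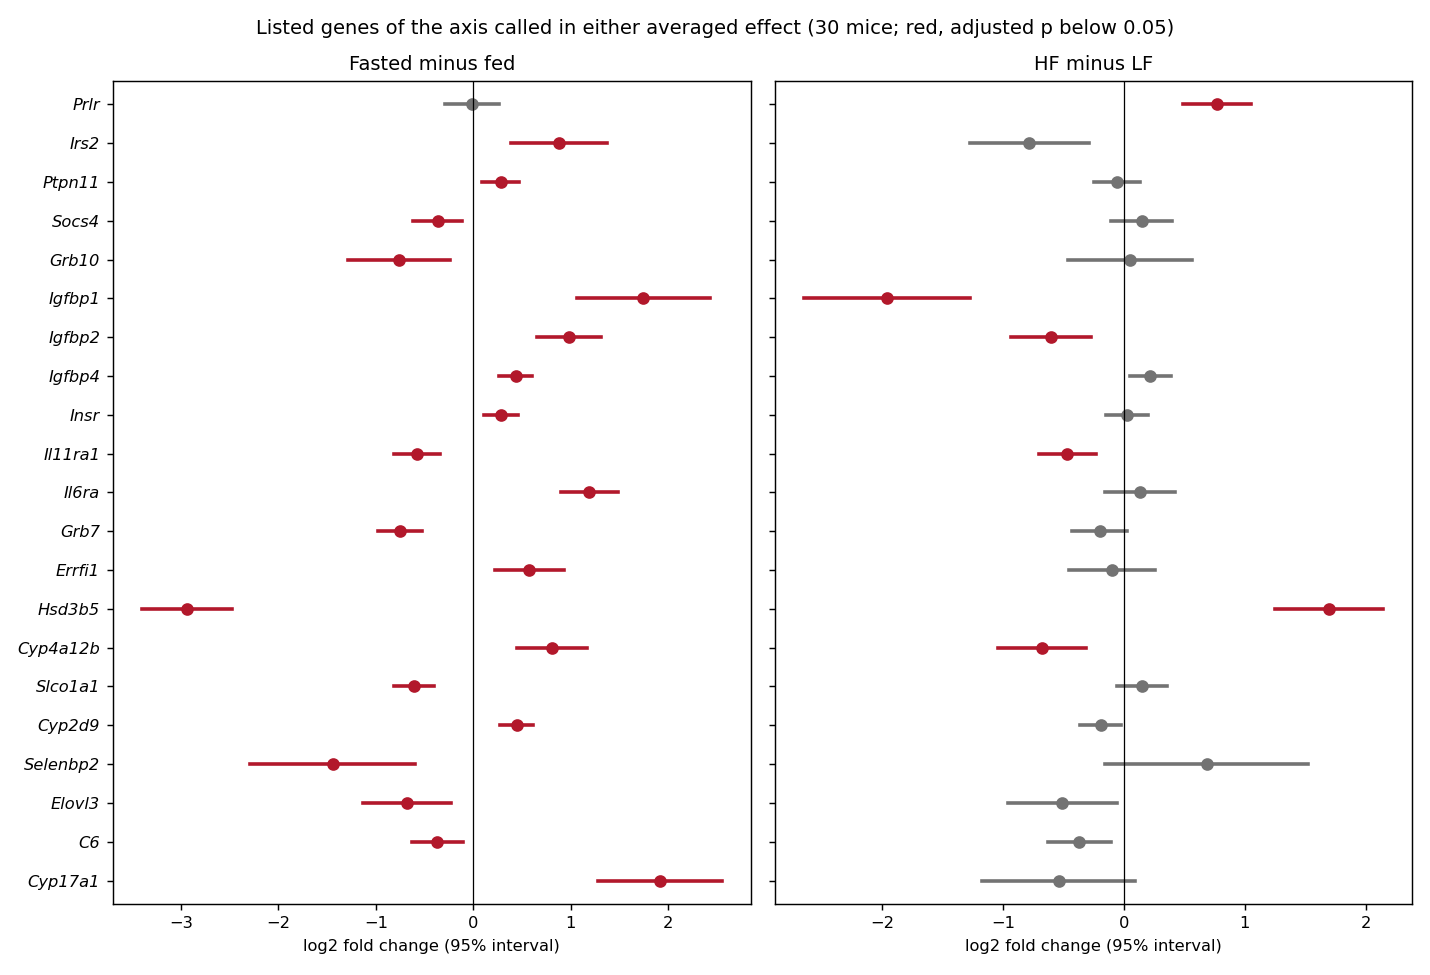
Log2 fold change with 95% interval for fasted minus fed (left) and HF minus LF (right) of the listed genes outside the 10 members that were called in either effect and are reported here, ordered by list from GH receptor signalling to the female-biased genes and leaving out Cyp2b9, which was at or near 0 in all LF mice. Red marks an adjusted p below 0.05; Hsd3b5 lies farthest to the left with fasting, and Igfbp1 lies to the right with fasting and to the left on the HF diet.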

How the data were processed

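Liver RNA was measured in 32 mice, and per the labels 16 libraries ran on each of 2 lanes (7 and 8). After alignment to GRCm38, the authors deposited a single table of raw counts, with 1 row per Ensembl gene. Submitters' processing notes name HISAT 0.1.5, SAMtools 1.2 and HTSeq 0.6.1p1, and the strand setting is not given in the sources used here. Of 20076 identifiers, 163 had no symbol (0.125% of counts). Counts on single members went down to 3 per mouse (Socs3), which limits the precision of the lowest values.

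The 10 members and all gene lists were chosen with earlier results of these data known. Named genes were the members, up to 4 genes per list and direction with the smallest p among those called in an averaged effect, and the 4 genes most like Igf1 and Bcl6 over group means. The 2 mice described above were left out, and 30 were used. Counts were normalised by TMM, filtered by group with filterByExpr and fitted with 1 mean per group by edgeR 4.0.16 (robust quasi-likelihood F test, R 4.3.3), with Benjamini-Hochberg adjustment over 11566 genes for each of 18 comparisons. SE was taken from the fold change and its F value. CPM on the log2 scale used a prior count of 2. DESeq2 1.42.0, limma 3.58.1 voom, other normalisation, no filter, lane or age as a term, single lanes, the 2 groups alone and leaving out each mouse were alternatives. The steps were tested on simulated data with 200 changed genes. No 2 mice of a group had counts within sampling noise (48 pairs). For 1 listed gene, the result is not reported here.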

Additional observations from a re-analysis of the deposited data

Results flagged for a closer look

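Among 60 sets of 4 mice tested for 1 value far from the others, 4 stood out, where chance alone flags about 1 in 20. Igf1 was highest in WT HF fed replicate 1 (957 CPM against 769 to 779 CPM in the other mice of its group). Socs2 was highest in WT LF fasted replicate 2 (90.3 CPM against 19.0 to 28.7 CPM). Stat5b was highest in KO LF fasted replicate 4 (65.3 CPM against 37.1 to 39.3 CPM). Lifr was lowest in WT HF fasted replicate 1 (149 CPM against 239 to 256 CPM).

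The fasting effect on Ghr differed between the diets by 0.73 on the log2 scale (SE 0.20, edgeR adjusted p = 0.039), smaller in size on the HF diet, and the call was lost in 18 of the 30 fits without 1 mouse.

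The 2 mice left out of all comparisons also gave values. WT LF fed replicate 2 held 12.3 CPM of Socs3, above the 1.68 to 7.74 CPM of the other mice of its group, and 157 CPM of Ghr where they held 387 to 391 CPM. KO HF fasted replicate 4, the library with heart markers, held 50.6 CPM of Socs2, 38.7 CPM of Cish and 64.0 CPM of Igf1. The highest other mice of its label held 49.8 CPM of Socs2 and 34.4 CPM of Cish, too near to be ordered across the 2 normalisations.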

How the results depend on the processing

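The fits rest on 3 or 4 mice per group, and with the wide spread of Cish, Socs2, Socs3 and Bcl6 they leave many sizeable differences unresolved. No called result changed its direction under 42 other settings. Averaged over strata, fasting called 4 members, against 1 within lane 7 and 2 within lane 8, and 4 to 5 without 1 mouse. Bcl6 was also called without KO HF fasted replicate 1 (-0.85, adjusted p = 0.023) and Egfr without KO HF fasted replicate 3 (-0.62, adjusted p = 0.038). Diet called 1 member, against 0 with all 32 mice, with lane or age as a term and within either lane, and 0 to 2 without 1 mouse. The difference of the fasting effect between diets called 1 member, against 0 with all 32 mice, with 31 mice (KO HF fasted replicate 4 left out) and with lane as a term, 2 with DESeq2 and with limma voom, and 0 to 1 without 1 mouse.

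Fasting in WT LF mice called 3 members, against 0 with all 32 mice, 1 with 31 mice, 5 with the 2 groups alone and 2 to 4 without 1 mouse. In that comparison Lifr was lost without WT LF fed replicate 1 (-0.80, adjusted p = 0.15) or WT LF fasted replicate 1 (-1.04, adjusted p = 0.051). Fasting in KO LF mice called 4 members, against 2 with all 32 mice and 2 to 5 without 1 mouse. Diet in WT fasted and in KO fasted mice called 0 members, and 0 to 1 without 1 mouse. Diet in KO fed mice called 0, against 1 (Bcl6) with the 2 groups alone. Single lanes and pairs of groups hold fewer mice, and the cause of these changes was not tested.

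Over all genes, fasting called 2187 genes, against 344 within lane 7, and diet 404, against 81 with all 32 mice, 53 within lane 7 and 85 within lane 8. The difference of the fasting effect between diets called 285 genes, against 22 with all 32 mice, 152 with 31 mice and 430 with DESeq2.

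Replicate numbers did not pair mice across groups (98 pairs with the same number, median r = 0.006, 2 pairs over 0.1, and 5 of 30 mice closest to their own number). With the replicate block, fasting called 4 members, diet 1, the difference of the fasting effect between diets 1, fasting in WT LF mice 3 and fasting in KO LF mice 3, where Cish was lost (-2.43, adjusted p = 0.06).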

Other observations

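Cish deviated from its group means together with a few other genes, named here after their values were seen. Over 30 mice and among 11565 genes, the deviations most like those of Cish were those of Onecut1 (r = 0.84), which encodes a hepatocyte transcription factor, Resf1 (r = 0.80) and Socs2 (r = 0.80, rank 3), followed by Errfi1 (r = 0.70). The most opposite were those of B630019A10Rik (r = -0.66) and Nr1d1 (r = -0.65), which encodes a repressor of the circadian clock. For Bcl6, the most opposite were Alas1 (r = -0.70), the first enzyme of haem synthesis, and Onecut1 (r = -0.70). These values are descriptions over mice that share 2 sequencing lanes, and carry no test.

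In 1 KO HF fasted mouse (replicate 3), acute-phase mRNAs summed to 10682 CPM against 5194 and 3884 CPM in the other mice of its group, and the same mouse held the highest Socs3 (29.8 CPM) and Egfr (466 CPM) of that group.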
